A study of Saccharomyces pastorianus with 18 samples.

Results

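DNA replication and cyclin genes were followed through 18 RNA-seq libraries of lager yeast. The group has 42 genes, chosen by gene name: 33 genes of the replication machinery, the 3 G1 cyclins CLN1, CLN2 and CLN3, and the 6 B-type cyclins CLB1 to CLB6. They are 42 of 7568 gene symbols in the table after the copies of a symbol were summed. Apart, they occupy 80 of 11979 annotated features, 42 on the S. cerevisiae sub-genome and 38 on the S. eubayanus sub-genome. Lager yeast, Saccharomyces pastorianus, is a hybrid that carries genes from both species.

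The libraries came from 2 strains, W34/70 9.7 and CBS1538 11.1, each in 3 conditions with 3 libraries per group. Both strains descend from parents exposed to 20, 40 or 100 µg/mL radicicol, which blocks the Hsp90 chaperone. They were picked for growth on B2TA at 75 µg/mL and PFPA at 200 µg/mL, which are analogues of phenylalanine. By the titles all 6 groups share this derivation, though the strain field gives the CBS1538 11.1 day 2 libraries as the parental strain. No group titled as an untreated parent was analysed here. The minimal medium groups were in exponential phase at 20 °C, in 0.5% ammonium sulfate, 1% dextrose and 1% maltose. The day 4 and day 2 groups were sampled from 10% wort with 1 mM ZnSO4 at 13 °C. Medium, temperature and growth phase therefore changed together between minimal medium and wort and cannot be told apart. Each strain is labelled as a single mutant. The labels call the cultures triplicates and say no more, so p-values measure the spread between these libraries, which may be technical.

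Before S phase, the origin recognition complex marks replication origins, and Cdc6 helps it load the ring-shaped Mcm2-7 helicase there. Activated helicases with Cdc45 then unwind DNA for the polymerases, while the sliding clamp PCNA, replication protein A and ribonucleotide reductase hold polymerase on DNA, coat single strands and supply nucleotides. In budding yeast many of these genes are transcribed together late in G1. The G1 cyclins drive passage through Start, and the B-type cyclins act first in S phase and later in mitosis.

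Library totals ran from 12782267 to 19467656 counts in W34/70 9.7 and from 5266324 to 16571345 counts in CBS1538 11.1. The labels disagree on the CBS1538 11.1 day 2 libraries, which the titles give as the mutant and the strain field as the parental strain. Every comparison with these libraries carries that doubt. In W34/70 9.7, day 4 replicate 1 had 1417 counts and day 2 replicate 2 had 1465 counts on the 496 S. eubayanus chromosome VII features, against 284445 to 396506 counts in the other W34/70 9.7 libraries. Deviations from the group means correlated at 0.79 between these 2 libraries, and at -0.66 to 0.55 in the other pairs of a day 4 and a day 2 library of W34/70 9.7. Whether the pair comes from the same isolate as the others is not given in the sources used here. Of the members, RNR4 has its S. eubayanus copy there with counts. CLB1, CLB2, CLB5 and CLB6 have an S. cerevisiae feature only, with no counts or next to none in CBS1538 11.1, so 38 members are counted in that strain and in every strain comparison. In W34/70 9.7 their levels are of that feature alone, and any S. eubayanus copy was not measured. Because the RNA is from bulk cultures, fewer cells in a cell cycle phase and less RNA per cell cannot be told apart. Unless a copy is named, levels are library-scaled counts in CPM units with both copies summed, listed by replicate, and changes are log2 fold changes. Calls are by edgeR's quasi-likelihood test with Benjamini-Hochberg adjustment over all genes and a threshold of 0.05.

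In minimal medium most replication and cyclin genes of W34/70 9.7 stood above their day 2 level, and the small subunits of ribonucleotide reductase stood far below it. Against day 2, 31 of the 42 members were called higher and 4 lower, beside 33.1% of all genes tested higher and 32.4% lower. The median log2 change was 0.93 over the members and -0.02 over all genes tested. The largest rises were in POL30, which encodes PCNA (2.80), in the S-phase cyclin gene CLB6 (2.60) and in the helicase loader CDC6 (2.13). The 4 members called lower were RNR4 (-1.63), RNR2 (-1.44), MCM3 (-0.70) and RFC1 (-0.39). In CBS1538 11.1 the same comparison called 12 of 38 members higher and 7 lower, beside 31.6% of all genes tested higher and 24.3% lower. The median was 0.19 over the members and 0.12 over all genes tested there. The CBS1538 11.1 counts turned to more lower than higher calls under other settings, with 7 higher and 9 lower under DESeq2 size factors and 6 higher and 9 lower with no filter on low counts. Scaled by library totals, 35 W34/70 9.7 members were called higher and 2 lower.

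**Figure D1:**
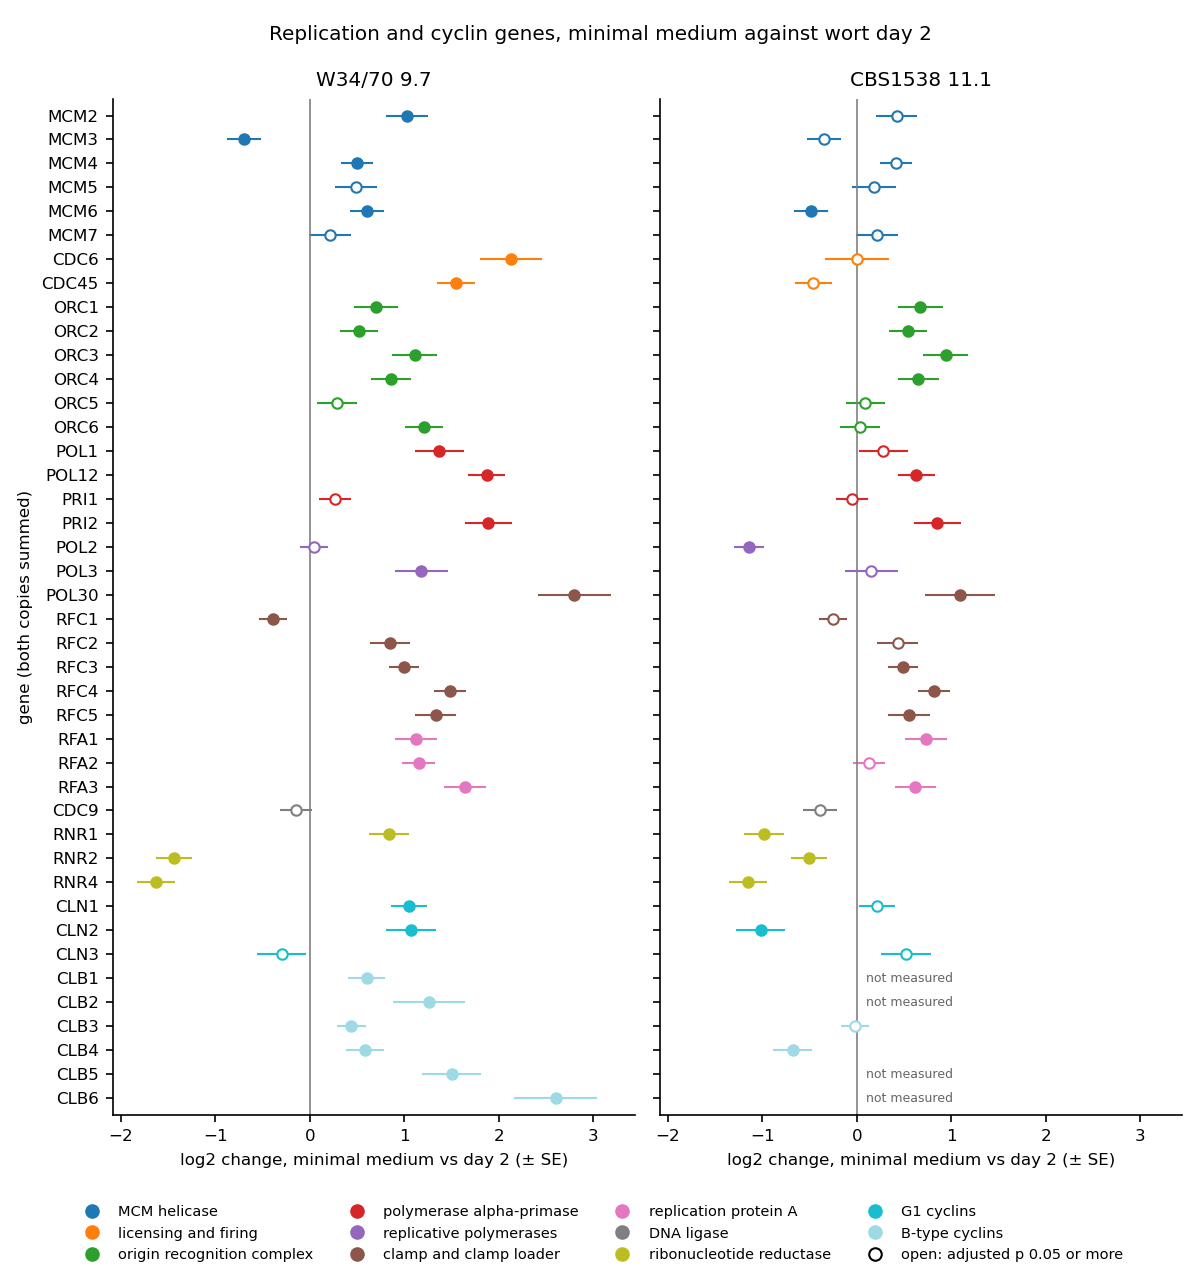
Log2 change ± SE of each of the 42 members between minimal medium and day 2, with W34/70 9.7 on the left and CBS1538 11.1 on the right, coloured by role, with open points for an adjusted p of 0.05 or more. POL30, CLB6 and CDC6 lie farthest to the right in W34/70 9.7 at 2.80, 2.60 and 2.13, and RNR4 and RNR2 lie to the left in both strains.

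Most genes of the origin recognition complex, the origin-binding scaffold, were called higher in minimal medium than on day 2. In W34/70 9.7, 5 of 6 were called higher and none lower, beside 33.1% of all genes tested higher and 32.4% lower. In CBS1538 11.1, 4 of 6 were called higher and none lower, beside 31.6% and 24.3% of all genes tested. ORC6, the subunit needed for helicase loading but not for origin binding, had 34.8, 35.0 and 32.5 CPM in minimal medium, 24.0, 25.7 and 25.6 CPM on day 4 and 11.6, 14.8 and 17.9 CPM on day 2 in W34/70 9.7. All minimal medium libraries were above all wort libraries, with a change against day 2 of 1.21 (SE 0.20, adjusted p = 6.79e-05). In CBS1538 11.1, ORC6 had 23.0, 19.7 and 17.4 CPM in minimal medium, 10.4, 12.2 and 14.9 CPM on day 4 and 21.6, 21.4 and 16.2 CPM on day 2. There the minimal medium and day 2 libraries overlapped and the day 4 libraries were the low ones, so ORC6 rose on day 4 against day 2 in W34/70 9.7 (0.77 (adjusted p = 0.00741)) and fell in CBS1538 11.1 (-0.65 (adjusted p = 0.0232)). The rise on day 4 was not called without W34/70 9.7 day 2 replicate 1 (log2 change 0.57), and the fall was not called without CBS1538 11.1 day 4 replicate 1 or without CBS1538 11.1 day 2 replicate 2 (log2 change -0.59 to -0.58). ORC1, the ATP-binding subunit, together with ORC2, ORC3 and ORC4 was called higher against day 2 in both strains, with changes of 0.70, 0.52, 1.11 and 0.86 in W34/70 9.7 and 0.67, 0.54, 0.94 and 0.65 in CBS1538 11.1. The W34/70 9.7 calls on ORC1 and ORC2 each ended when any 1 of 5 libraries was left out, with changes down to 0.41 and 0.35. In CBS1538 11.1 the calls on ORC1, ORC2 and ORC4 each ended when any 1 of 4 libraries was left out (0.39 to 0.66, 0.33 to 0.45 and 0.48 to 0.63), so ORC3 alone kept its call there. ORC5 was not called in either strain (0.29 (adjusted p = 0.231) in W34/70 9.7, 0.09 (adjusted p = 0.836) in CBS1538 11.1).

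The helicase loader and the helicase activator separated the strains. CDC6 had 25.3, 28.2 and 33.7 CPM in minimal medium, 15.5, 18.02 and 15.7 CPM on day 4 and 7.55, 8.27 and 3.97 CPM on day 2 in W34/70 9.7. The 3 groups did not overlap, and minimal medium was the highest (2.13 (SE 0.33, adjusted p = 3.04e-05) against day 2). In CBS1538 11.1, CDC6 had 8.72, 5.83 and 7.76 CPM in minimal medium, 15.8, 13.6 and 18.5 CPM on day 4 and 6.16, 11.9 and 4.22 CPM on day 2. There day 4 was the high group, and CDC6 was lower in minimal medium than on day 4 (-1.09 (SE 0.33, adjusted p = 0.0102)) where W34/70 9.7 was higher (0.82 (SE 0.31, adjusted p = 0.0351)). That W34/70 9.7 call ended when any 1 of 6 libraries was left out, with changes of 0.67 to 0.87. CDC45 had 40.9, 43.4 and 46.3 CPM in minimal medium, 20.9, 21.6 and 18.6 CPM on day 4 and 13.2, 14.8 and 16.6 CPM on day 2 in W34/70 9.7, with all minimal medium libraries far above the rest (1.55 (SE 0.20, adjusted p = 5.06e-06) against day 2). In CBS1538 11.1, CDC45 had 17.8, 17.1 and 17.9 CPM in minimal medium, 19.5, 16.4 and 16.9 CPM on day 4 and 29.5, 27.1 and 16.2 CPM on day 2. Those groups overlapped, and the change against day 2 was -0.46 (adjusted p = 0.0742). The S. cerevisiae CDC6 feature shares 605 of its 1542 bases with an opposite-strand open reading frame that held 63 counts in all, and whether counting used strand is not given in the sources used here.

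The helicase subunit genes did not move as 1 group. MCM2 had 126, 136 and 127 CPM in minimal medium, 63.1, 42.9 and 51.4 CPM on day 4 and 60.4, 86.8 and 44.1 CPM on day 2 in W34/70 9.7. Minimal medium was above both wort days (1.03 (SE 0.22, adjusted p = 0.000616) against day 2), and the wort days overlapped. MCM4 (0.50) and MCM6 (0.60) were also called higher against day 2, each call ending when any 1 of 4 libraries was left out, with changes of 0.34 to 0.40 and 0.47 to 0.49. MCM3 was called lower (-0.70 (SE 0.18, adjusted p = 0.00313)). MCM5 (0.49 (adjusted p = 0.0634)) and MCM7 (0.21 (adjusted p = 0.419)) were not called. MCM6 had 68.4, 68.7 and 67.6 CPM in minimal medium, 45.2, 52.5 and 49.6 CPM on day 4 and 43.6, 38.4 and 52.9 CPM on day 2 in W34/70 9.7, against 52.8, 37.1 and 46.9 CPM in minimal medium, 63.0, 76.9 and 85.9 CPM on day 4 and 60.3, 76.6 and 55.2 CPM on day 2 in CBS1538 11.1. Minimal medium was the highest group in W34/70 9.7 and the lowest in CBS1538 11.1, where MCM6 was lower than on day 2 (-0.49 (SE 0.18, adjusted p = 0.0344)) and on day 4 (-0.72 (SE 0.18, adjusted p = 0.0032)). The CBS1538 11.1 call against day 2 ended when any 1 of 3 libraries was left out (log2 change -0.51 to -0.34). No count fell on the S. eubayanus MCM6 feature in any library, so these levels are of the S. cerevisiae feature.

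Polymerase alpha-primase, which lays down primers, was among the groups with the largest changes. POL12, its regulatory subunit, had 71.3, 70.5 and 77.1 CPM in minimal medium, 27.2, 24.2 and 25.6 CPM on day 4 and 22.6, 19.4 and 17.7 CPM on day 2 in W34/70 9.7 and rose against day 2 (1.87 (SE 0.20, adjusted p = 5.46e-07)). PRI2, the large primase subunit, had 66.2, 60.1 and 76.3 CPM in minimal medium, 42.1, 45.9 and 37.0 CPM on day 4 and 19.0, 19.1 and 16.7 CPM on day 2, with all 3 groups apart (1.89 (SE 0.25, adjusted p = 5.7e-06) against day 2). In CBS1538 11.1, POL12 had 43.6, 56.6 and 43.8 CPM in minimal medium, against 26.4, 42.2 and 24.1 CPM on day 2, and PRI2 had 40.8, 53.7 and 26.8 CPM in minimal medium, against 31.2, 20.9 and 15.7 CPM on day 2. Both were called higher, by 0.63 and 0.85, with PRI2 overlapping between the groups. The POL12 call ended when any 1 of 3 libraries was left out (0.35 to 0.50), and the PRI2 call ended without CBS1538 11.1 minimal medium replicate 2 or without CBS1538 11.1 day 2 replicate 3 (log2 change 0.52 to 0.59). POL1, the polymerase subunit, rose in W34/70 9.7 (1.37 (SE 0.26, adjusted p = 0.000245)) and was not called in CBS1538 11.1 (0.28 (adjusted p = 0.426)). PRI1, the catalytic primase subunit, was not called in either strain (0.27 (adjusted p = 0.162) in W34/70 9.7, -0.05 (adjusted p = 0.901) in CBS1538 11.1).

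Genes of the replicative polymerases' catalytic subunits and of the ligase had different calls. POL3, of polymerase delta, had 40.7, 39.7 and 46.5 CPM in minimal medium, 32.6, 40.1 and 26.9 CPM on day 4 and 15.4, 21.4 and 19.0 CPM on day 2 in W34/70 9.7, with day 2 the low group (1.18 (SE 0.28, adjusted p = 0.00138)). In CBS1538 11.1 POL3 had 42.7, 45.3 and 51.5 CPM in minimal medium, against 20.0, 62.0 and 43.1 CPM on day 2, where the day 2 libraries spread across the minimal medium range (0.15 (adjusted p = 0.751)). POL2, of polymerase epsilon, was not called in W34/70 9.7 (0.04 (adjusted p = 0.824)) and fell in CBS1538 11.1 (-1.14 (SE 0.16, adjusted p = 1.58e-05)). CDC9, the ligase that seals Okazaki fragments, had 73.3, 79.7 and 80.6 CPM in minimal medium, 63.7, 59.6 and 40.4 CPM on day 4 and 92.6, 81.5 and 85.0 CPM on day 2 in W34/70 9.7. Its minimal medium level was not called different from day 2 (-0.15 (adjusted p = 0.469)) and was called higher than on day 4 (0.51 (adjusted p = 0.0199)), a call that ended when any 1 of 4 libraries was left out (0.29 to 0.51). In CBS1538 11.1 CDC9 had 86.8, 98.96 and 124 CPM in minimal medium, 69.9, 73.9 and 65.5 CPM on day 4 and 132, 128 and 144 CPM on day 2, with day 4 the low group, -0.95 (SE 0.18, adjusted p = 0.000711) against day 2.

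The sliding clamp gene had the largest change of all members. POL30 had 245, 286 and 271 CPM in minimal medium, 159.8, 73.1 and 65.0 CPM on day 4 and 21.5, 68.6 and 24.8 CPM on day 2 in W34/70 9.7. Every minimal medium library was above every wort library (2.80 (SE 0.39, adjusted p = 9.04e-06) against day 2). The highest day 4 library, replicate 1, and the highest day 2 library, replicate 2, were those with hardly any counts on S. eubayanus chromosome VII, although neither POL30 copy lies there. In CBS1538 11.1, POL30 had 83.2, 81.2 and 66.6 CPM in minimal medium, 82.8, 86.6 and 71.4 CPM on day 4 and 38.1, 29.0 and 41.7 CPM on day 2. Minimal medium and day 4 overlapped there and day 2 was the low group (1.09 (SE 0.37, adjusted p = 0.0227)), a call that ended when any 1 of 5 libraries was left out (0.92 to 1.08). The S. cerevisiae POL30 feature (YBR088C, chromosome II, 424990 to 425766, reverse strand) shares 584 of its 777 bases with an opposite-strand open reading frame with 45 counts. Of the clamp loader genes, RFC4 had 38.9, 41.2 and 41.5 CPM in minimal medium, 20.0, 22.1 and 21.2 CPM on day 4 and 17.1, 15.3 and 11.2 CPM on day 2 in W34/70 9.7, with no overlap between the groups (1.48 (SE 0.17, adjusted p = 1.06e-06)). RFC2, RFC3 and RFC5 were also called higher against day 2 in W34/70 9.7 (0.85, 1.00 and 1.33). RFC1, the large subunit, was called lower (-0.39 (adjusted p = 0.0281)), a call that ended without W34/70 9.7 day 2 replicate 2 (log2 change -0.33). In CBS1538 11.1, RFC3, RFC4 and RFC5 were called higher (0.49, 0.82 and 0.55), and RFC1 (-0.25 (adjusted p = 0.174)) and RFC2 (0.43 (adjusted p = 0.11)) were not. The RFC3 call ended when any 1 of 3 libraries was left out (0.34 to 0.45) and the RFC5 call when any 1 of 5 was (0.39 to 0.62).

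All 3 genes of replication protein A, the single-strand binding complex, rose in minimal medium against day 2 in W34/70 9.7. RFA3, the small subunit, had 99.6, 138 and 99.9 CPM in minimal medium, 35.2, 54.6 and 60.4 CPM on day 4 and 45.3, 28.4 and 34.9 CPM on day 2 there, with minimal medium above both wort days (1.64 (SE 0.22, adjusted p = 7.34e-06)). RFA2, the middle subunit, rose by 1.15 and RFA1, the large subunit, by 1.12. In CBS1538 11.1 RFA1 (0.73) and RFA3 (0.62) were called higher and RFA2 was not (0.13 (adjusted p = 0.622)). The RFA1 and RFA3 calls in CBS1538 11.1 ended when any 1 of 3 and any 1 of 5 libraries was left out. RFA1 had 195, 173 and 202 CPM in minimal medium, 131, 88.0 and 102 CPM on day 4 and 70.0, 113 and 77.5 CPM on day 2 in W34/70 9.7 and 105, 83.6 and 100.9 CPM in minimal medium, 153, 167 and 153 CPM on day 4 and 43.3, 74.8 and 55.8 CPM on day 2 in CBS1538 11.1. Day 4 was thus the highest RFA1 group in CBS1538 11.1, and minimal medium against day 4 was lower there (-0.71 (SE 0.21, adjusted p = 0.0114)) and higher in W34/70 9.7 (0.82 (SE 0.21, adjusted p = 0.00378)). The CBS1538 11.1 fall was not called without CBS1538 11.1 minimal medium replicate 2 (log2 change -0.61).

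Both small subunit genes of ribonucleotide reductase, which makes deoxyribonucleotides, were lower in minimal medium than on day 2 in both strains. RNR4, a small subunit gene, had 396, 387 and 352 CPM in minimal medium, 787, 895 and 804 CPM on day 4 and 1401, 1209 and 909.5 CPM on day 2 in W34/70 9.7, with the 3 groups apart (-1.63 (SE 0.20, adjusted p = 2.19e-06) in minimal medium against day 2). In CBS1538 11.1 RNR4 had 962, 825 and 1275 CPM in minimal medium, 1081, 1039 and 978 CPM on day 4 and 2395, 1929 and 2460 CPM on day 2, with day 2 the high group (-1.15 (SE 0.20, adjusted p = 0.000123)). RNR2, the other small subunit gene, had 223, 226 and 199 CPM in minimal medium, 311, 352 and 312 CPM on day 4 and 603, 711 and 447 CPM on day 2 in W34/70 9.7 (-1.44 (SE 0.19, adjusted p = 5.2e-06)). In CBS1538 11.1 RNR2 had 389.5, 370.4 and 520.5 CPM in minimal medium, 323, 316 and 253 CPM on day 4 and 617, 537 and 666 CPM on day 2. RNR2 was there lower in minimal medium than on day 2 (-0.51 (adjusted p = 0.0327)) but higher than on day 4 (0.52 (adjusted p = 0.0285)), where W34/70 9.7 was lower (-0.59 (adjusted p = 0.0135)). The CBS1538 11.1 call against day 2 ended without CBS1538 11.1 minimal medium replicate 1 or without CBS1538 11.1 minimal medium replicate 2 (log2 change -0.55 to -0.41), and the call against day 4 ended when any 1 of 5 libraries was left out (0.35 to 0.52). RNR1, the main large subunit gene, had 294, 242 and 305 CPM in minimal medium, 195, 141 and 181 CPM on day 4 and 171, 157 and 142 CPM on day 2 in W34/70 9.7, with minimal medium the highest (0.84 (SE 0.21, adjusted p = 0.00198) against day 2). In CBS1538 11.1 RNR1 had 178, 146 and 209.6 CPM in minimal medium, 534, 464 and 302 CPM on day 4 and 324, 404 and 323 CPM on day 2, with minimal medium the lowest (-0.98 (SE 0.21, adjusted p = 0.000876) against day 2 and -1.28 (SE 0.21, adjusted p = 8.33e-05) against day 4). The W34/70 9.7 difference between minimal medium and day 4 was 0.70 (adjusted p = 0.009) and was not called without W34/70 9.7 day 4 replicate 2 (log2 change 0.54).

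**Figure D2:**
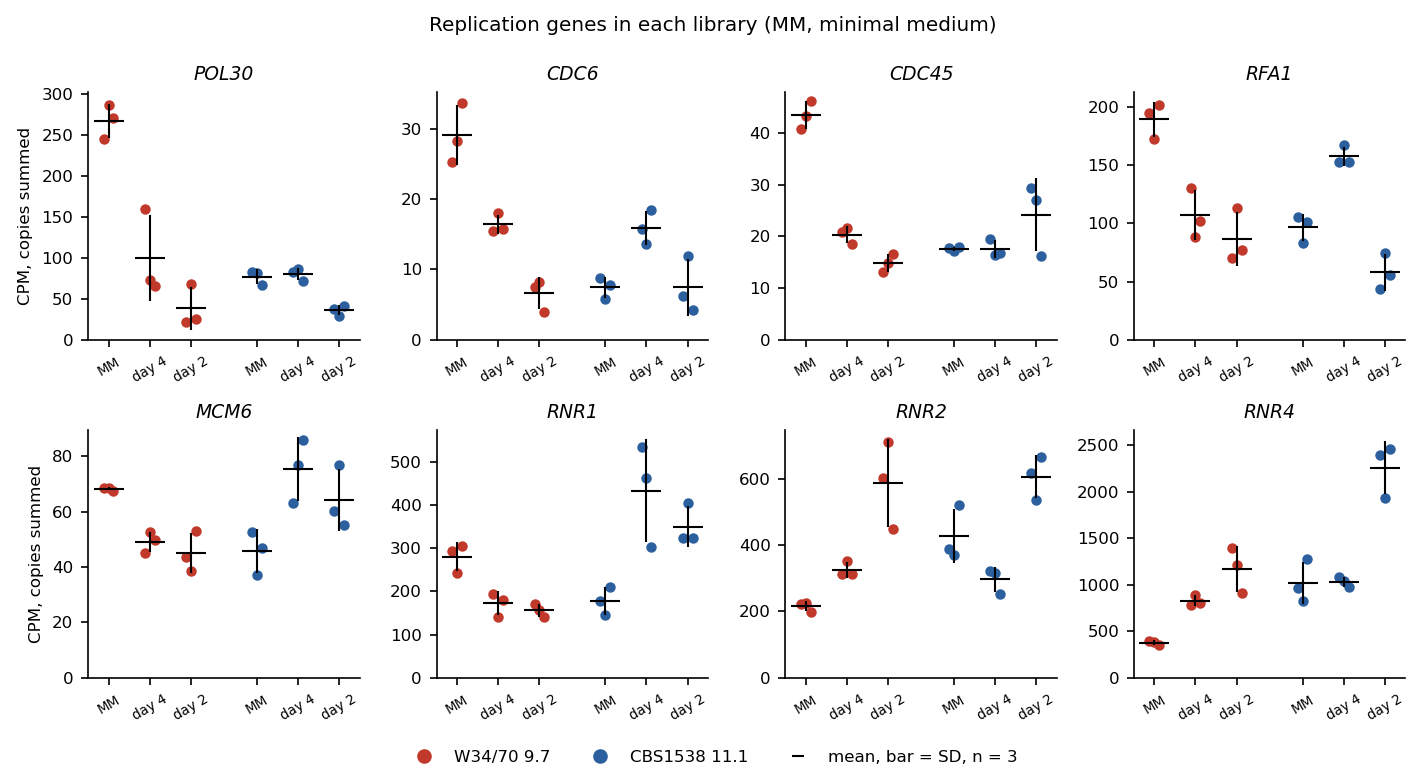
CPM in each library of POL30, CDC6, CDC45, RFA1, MCM6, RNR1, RNR2 and RNR4 in minimal medium, on day 4 and on day 2, with W34/70 9.7 in red and CBS1538 11.1 in blue, and bars for the mean ± SD of 3 libraries. Minimal medium is the highest W34/70 9.7 group for POL30, CDC6, CDC45, RFA1, MCM6 and RNR1 and the lowest for RNR2 and RNR4.

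Of the G1 cyclins, which drive passage through Start with the kinase Cdc28, CLN1 and CLN2 rose in W34/70 9.7 and CLN3 did not. CLN1 had 102, 80.8 and 94.3 CPM in minimal medium, 49.2, 37.4 and 39.0 CPM on day 4 and 57.2, 42.04 and 34.5 CPM on day 2 in W34/70 9.7, with all minimal medium libraries above the wort libraries (1.05 (SE 0.19, adjusted p = 0.000117) against day 2). In CBS1538 11.1 CLN1 had 73.4, 65.0 and 72.9 CPM in minimal medium, 61.6, 62.3 and 50.3 CPM on day 4 and 64.7, 63.6 and 54.7 CPM on day 2, with changes under the threshold (0.21 (adjusted p = 0.396) against day 2). CLN2 had 44.3, 31.5 and 63.9 CPM in minimal medium, 19.3, 20.0 and 22.0 CPM on day 4 and 29.5, 20.1 and 16.9 CPM on day 2 in W34/70 9.7, with minimal medium above both wort days and the widest spread there (1.07 (SE 0.26, adjusted p = 0.0016) against day 2, 1.19 (SE 0.26, adjusted p = 0.000939) against day 4). In CBS1538 11.1 CLN2 had 19.0, 14.6 and 13.1 CPM in minimal medium, 36.0, 37.5 and 31.1 CPM on day 4 and 26.4, 38.6 and 29.2 CPM on day 2. Minimal medium was there the low group (-1.02 (SE 0.26, adjusted p = 0.00392) against day 2, -1.17 (SE 0.26, adjusted p = 0.00131) against day 4). CLN2 was counted on its S. cerevisiae feature in W34/70 9.7 and on its S. eubayanus feature in CBS1538 11.1, with 0 counts on the other feature in each. CLN3, the upstream activator of Start, had 145, 86.4 and 143 CPM in minimal medium, 161, 117 and 131 CPM on day 4 and 115, 209.7 and 139 CPM on day 2 in W34/70 9.7 and 244, 169 and 218 CPM in minimal medium, 177, 199 and 219 CPM on day 4 and 108, 199 and 131 CPM on day 2 in CBS1538 11.1. The groups overlapped in both strains (-0.30 (adjusted p = 0.323) in W34/70 9.7 and 0.52 (adjusted p = 0.114) in CBS1538 11.1 against day 2).

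All 6 B-type cyclin genes were called higher in minimal medium than on day 2 in W34/70 9.7. For CLB1, CLB2, CLB5 and CLB6 this holds for the S. cerevisiae feature alone, the only one measured. CLB6, an S-phase cyclin with few reads, had 6.20, 5.68 and 7.58 CPM in minimal medium, 1.08, 1.71 and 2.34 CPM on day 4 and 1.12, 1.26 and 0.775 CPM on day 2 (2.60 (SE 0.44, adjusted p = 0.000282) against day 2). CLB5, its paired S-phase cyclin, had 31.3, 33.98 and 34.5 CPM in minimal medium, 14.2, 18.7 and 15.5 CPM on day 4 and 14.1, 14.3 and 6.69 CPM on day 2 (1.50 (SE 0.31, adjusted p = 0.00114)). For both, minimal medium stood apart and the wort days overlapped. CLB2, the main mitotic cyclin, had 38.8, 25.2 and 35.0 CPM in minimal medium, 18.1, 24.2 and 23.8 CPM on day 4 and 17.8, 6.93 and 16.5 CPM on day 2 (1.26 (SE 0.38, adjusted p = 0.00976)). CLB1, its close relative, had 56.2, 51.8 and 51.9 CPM in minimal medium, 39.3, 33.0 and 39.8 CPM on day 4 and 33.3, 30.3 and 42.1 CPM on day 2 (0.60 (SE 0.20, adjusted p = 0.0222)). In CLB2 the low day 2 library was replicate 2, which also had hardly any counts on S. eubayanus chromosome VII. CLB3, which acts between S phase and mitosis, had 75.1, 68.4 and 75.9 CPM in minimal medium, 46.8, 55.0 and 49.0 CPM on day 4 and 58.0, 56.5 and 47.3 CPM on day 2 (0.44 (SE 0.15, adjusted p = 0.0179)). CLB4, of the same pair, had 21.0, 19.0 and 23.2 CPM in minimal medium, 20.9, 23.4 and 16.1 CPM on day 4 and 15.0, 12.6 and 14.6 CPM on day 2 (0.58 (SE 0.20, adjusted p = 0.0189)), with minimal medium and day 4 overlapping. The calls on CLB5 and CLB6 stood without each library in turn. The CLB2 call ended without W34/70 9.7 minimal medium replicate 1 or without W34/70 9.7 minimal medium replicate 3 (log2 change 1.00 to 1.10), and the calls on CLB1, CLB3 and CLB4 ended when any 1 of 5, 5 and 6 libraries was left out (0.43 to 0.50, 0.25 to 0.41 and 0.38 to 0.54).

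In CBS1538 11.1 only CLB3 and CLB4 could be measured. CLB3 had 115, 104 and 129 CPM in minimal medium, 106, 111 and 106 CPM on day 4 and 97.7, 132 and 122.9 CPM on day 2, with overlapping groups (-0.02 (adjusted p = 1) against day 2). CLB4 had 7.14, 9.14 and 8.92 CPM in minimal medium, 20.1, 14.4 and 17.8 CPM on day 4 and 14.5, 12.4 and 13.5 CPM on day 2. Minimal medium was the low group for CLB4 (-0.68 (SE 0.21, adjusted p = 0.013) against day 2 and -1.06 (SE 0.21, adjusted p = 0.000441) against day 4), the opposite direction to W34/70 9.7 against day 2.

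**Figure D3:**
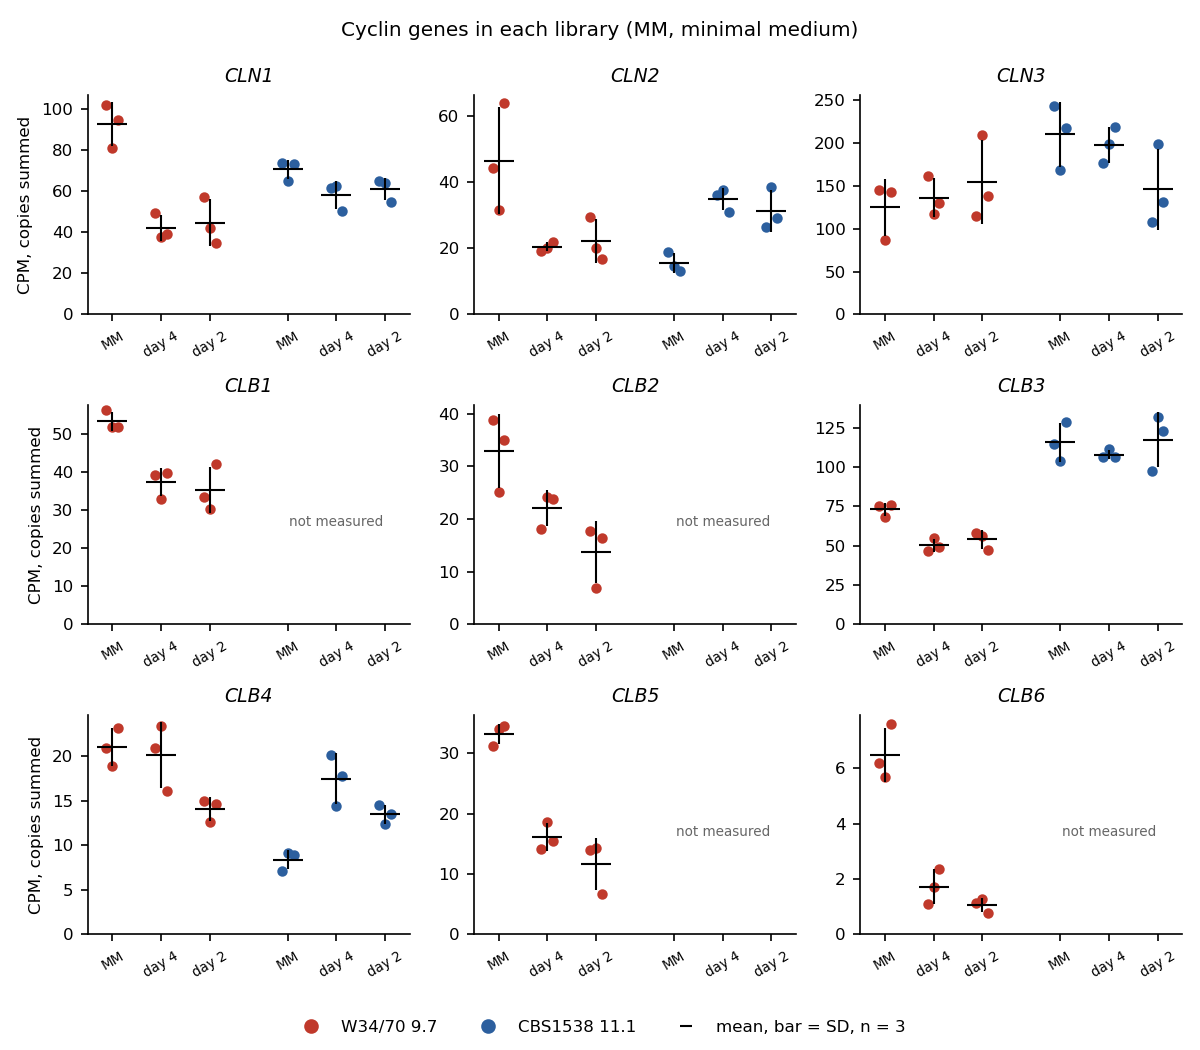
CPM in each library of the 9 cyclin genes by condition, with W34/70 9.7 in red and CBS1538 11.1 in blue, and bars for the mean ± SD of 3 libraries. CLB1, CLB2, CLB5 and CLB6 have W34/70 9.7 levels only, and CLN2 and CLB4 have minimal medium as the high group against day 2 in W34/70 9.7 and as the low group in CBS1538 11.1.

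Set side by side by class, W34/70 9.7 had, in minimal medium against day 2, 23 of 33 replication genes called higher and 4 lower, 2 of 3 G1 cyclins higher and 0 lower, and 6 of 6 B-type cyclins higher. Of all genes tested, 33.1% were called higher and 32.4% lower. The class medians were 0.86 for replication genes, 1.05 for G1 cyclins and 0.93 for B-type cyclins. CLB1, CLB2, CLB5 and CLB6 enter these by their S. cerevisiae feature alone. In CBS1538 11.1 the counts were 12 higher and 5 lower of 33 replication genes, 0 higher and 1 lower of 3 G1 cyclins, and 0 higher and 1 lower of the 2 B-type cyclins measured, beside 31.6% of all genes tested higher and 24.3% lower. The share of replication genes called higher there was near that of all genes. The class medians there were 0.21, 0.21 and -0.35.

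Against day 4, minimal medium in W34/70 9.7 again had most members higher. Of 42 members, 31 were called higher and 2 lower, beside 26.3% of all genes tested higher and 28.9% lower, with a median of 0.66 over the members and -0.03 over all genes tested. POL12 (1.51), POL30 (1.43), RFC3 (1.35) and MCM2 (1.31) rose most among replication genes, and RNR4 (-1.13) and RNR2 (-0.59) were the members called lower. Of the B-type cyclins CLB6 (1.93), CLB5 (1.04), CLB3 (0.54) and CLB1 (0.51) were called higher and CLB2 (0.58 (adjusted p = 0.2)) and CLB4 (0.06 (adjusted p = 0.811)) were not. The CLB1 call ended when any 1 of the 6 libraries was left out (0.39 to 0.51). In all, 12 of the 33 calls ended with single libraries left out. These were on CDC6, CDC9, CLB1, MCM6, MCM7, ORC1, POL2, PRI2, RFC1, RFC2, RFC5 and RNR1, and each such run gave 22 to 26 calls. In CBS1538 11.1, 16 of 38 were called higher and 6 lower, beside 29.1% of all genes tested higher and 26.6% lower, with a median of 0.42 over the members and 0.05 over all genes tested. The 6 lower ones were CLN2, CLB4, CDC6, RNR1, MCM6 and RFA1, and RFC3 rose most (1.62 (SE 0.16, adjusted p = 7.39e-07)). Without CBS1538 11.1 day 4 replicate 2, 8 members were called higher and 6 lower. With single libraries left out, 9 of the 22 calls there ended, on CDC9, MCM5, MCM7, ORC4, ORC5, ORC6, RFA1, RFC1 and RNR2.

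Between the wort days, W34/70 9.7 had 8 of 42 members called higher on day 4 than on day 2 and 5 lower, beside 20.9% of all genes tested higher and 17.2% lower. The median was 0.11 over the members and 0.08 over all genes tested. POL30 (1.37 (adjusted p = 0.00851)), CDC6 (1.31 (adjusted p = 0.00515)) and PRI2 (1.19 (adjusted p = 0.00152)) rose most, and MCM3 (-1.09 (adjusted p = 0.000383)) and RNR2 (-0.85 (adjusted p = 0.00228)) fell most. POL30 overlapped between the days and was not called when any 1 of 3 libraries was left out (0.78 to 1.08). The overlap came from day 2 replicate 2, of the pair low on S. eubayanus chromosome VII. Without that pair the S. cerevisiae POL30 copy changed by 1.71 (adjusted p = 0.000908) and the S. eubayanus copy by 1.48 (adjusted p = 0.0011). None of the 9 cyclins was called. This split depended on scaling: by library totals 20 members were called higher and 1 lower, and with only these 6 libraries in the fit 3 were higher and 4 lower. Without W34/70 9.7 day 4 replicate 2, 4 were higher and 6 lower, without day 2 replicate 1, 4 and 4, and without day 2 replicate 3, 3 and 6. In CBS1538 11.1, 4 of 38 were called higher on day 4 and 11 lower, beside 19.9% of all genes tested higher and 16.7% lower, with a median of -0.26 over the members and 0.06 over all genes tested. RFA1 (1.44 (adjusted p = 0.000179)) and POL30 (1.15 (adjusted p = 0.0266)) rose most, and RNR4 (-1.13 (adjusted p = 0.000436)) and RFC3 (-1.13 (adjusted p = 0.00012)) fell most. By library totals, 6 were higher and 8 lower. CDC6 and POL30 were called higher on day 4 in both strains, but in CBS1538 11.1 each call ended when any 1 of 4 libraries was left out (0.74 to 1.05 and 1.01 to 1.13). MCM3, POL2, RFC1, CDC9 and RNR2 were called lower in both, with the POL2 call in W34/70 9.7 ending when any 1 of 3 libraries was left out (-0.47 to -0.36).

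Compared directly, W34/70 9.7 had more members above CBS1538 11.1 in minimal medium and fewer in wort. For CLN2 and other members counted on different species' features in each strain, these comparisons set 1 species' copy against the other's. In minimal medium 21 of 38 were called higher in W34/70 9.7 and 7 lower, beside 36.7% of all genes tested higher and 27.1% lower. With single libraries left out, 9 of these 28 calls ended, on CDC9, CLN3, MCM2, MCM7, ORC4, ORC5, POL1, PRI2 and RNR1. Each such run gave 23 to 24 calls. CDC6 (1.96 (SE 0.33, adjusted p = 5.23e-05)), POL30 (1.80 (SE 0.37, adjusted p = 0.000409)) and CLN2 (1.58 (SE 0.26, adjusted p = 4.5e-05)) were the farthest above, and MCM3 (-1.48 (SE 0.19, adjusted p = 1.9e-06)) and RNR4 (-1.43 (SE 0.20, adjusted p = 5.64e-06)) the farthest below. On day 4, 8 were higher and 9 lower, beside 35.5% of all genes tested higher and 25.7% lower, with ORC1 the farthest above (1.76 (adjusted p = 4.26e-06)) and MCM3 the farthest below (-1.47 (adjusted p = 2.26e-06)). By library totals, 10 were higher and 4 lower on day 4. With single libraries left out, 5 of the 17 day 4 calls ended, on CLN1, MCM5, ORC2, RFA1 and RFC5. On day 2, 3 were higher and 14 lower, beside 30.7% of all genes tested higher and 21.7% lower. The 3 higher were ORC1, RFC2 and RFA1, and the RFA1 call ended when any 1 of 3 libraries was left out (0.35 to 0.54). In all, 7 of the 17 day 2 calls ended with single libraries left out, on CLN1, MCM6, MCM7, POL12, PRI1, RFA1 and RFC4. POL30 did not differ by the test on day 2 (0.08 (adjusted p = 0.863)), but was called lower in W34/70 9.7 (-0.64) without the pair of libraries low on S. eubayanus chromosome VII.

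The change itself differed between the strains for several members. For minimal medium against day 2, the change was called higher in W34/70 9.7 than in CBS1538 11.1 for 16 of 38 members and lower for 1, beside 16.0% of all genes tested higher and 17.3% lower. The largest differences of log2 changes were in CDC6 (2.14 (SE 0.47, adjusted p = 0.00242)), CLN2 (2.08 (SE 0.37, adjusted p = 0.000411)), CDC45 (2.01 (SE 0.29, adjusted p = 5.54e-05)) and RNR1 (1.82 (SE 0.30, adjusted p = 0.000187)), and RNR2 was the lower one (-0.94 (SE 0.26, adjusted p = 0.0131)). Against day 4, the change was higher for 12 members and lower for 2, beside 13.5% of all genes tested higher and 15.1% lower, led by CLN2 (2.35 (SE 0.37, adjusted p = 0.000178)) and RNR1 (1.99 (SE 0.30, adjusted p = 0.000115)), with RNR2 and RNR4 the lower ones. With single libraries left out, 6 of the 17 differences against day 2 (CLN1, POL1, POL30, PRI2, RFA3 and RFC4) and 3 of the 14 against day 4 (CLN1, POL30 and RFA3) lost their call, POL30 against day 4 when any 1 of 11 of the 12 libraries was left out (1.29 to 1.59). For day 4 against day 2, 4 were higher and 1 lower, beside 7.30% of all genes tested higher and 6.73% lower. These were ORC6, PRI2, CDC45 and RFC3 higher and RFA1 lower, and ORC6 alone kept its call without each library in turn. By library totals the counts were 21 higher and 0 lower for minimal medium against day 2, and 9 higher and 0 lower for day 4 against day 2.

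The copies from the parent species were counted apart. In W34/70 9.7, minimal medium against day 2 gave 44 member copies called higher and 6 lower, where 29.5% of all features tested were called higher and 27.6% lower. These were 24 S. cerevisiae and 20 S. eubayanus copies higher, and 2 and 4 lower. Against day 4, 36 were higher and 1 lower, where 20.6% of all features tested were called higher and 23.5% lower. Between day 4 and day 2, 9 were higher and 9 lower, where 16.4% of all features tested were called higher and 12.8% lower. By library totals those splits became 56 higher and 3 lower against day 2, and 28 higher and 5 lower between the wort days. In CBS1538 11.1, minimal medium against day 2 gave 7 copies higher and 11 lower, where 20.9% of all features tested were called higher and 22.1% lower. Against day 4, 11 were higher and 8 lower, where 20.7% of all features tested were called higher and 23.0% lower. Between day 4 and day 2, 2 were higher and 10 lower, where 12.3% of all features tested were called higher and 11.8% lower. By library totals the CBS1538 11.1 splits became 10 higher and 6 lower against day 2 and 4 higher and 9 lower between the wort days. Most S. cerevisiae member features had no or next to no counts in CBS1538 11.1. With single libraries left out, minimal medium against day 2 gave 39 to 48 calls in W34/70 9.7 and 12 to 15 in CBS1538 11.1. Against day 4 the calls were 31 to 34 and 15 to 22, and between the wort days 14 to 17 and 8 to 13.

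The median change of some whole chromosomes differed from 0 between the W34/70 9.7 groups, so each copy was set beside the median of its chromosome. In minimal medium against day 2, that median was 0.64 on S. eubayanus chromosome II, which carries MCM2 and POL12. It was -0.51 on S. cerevisiae chromosome I and -0.48 on S. eubayanus chromosome I, which carry RFA1 and CLN3. It was also -0.48 on S. eubayanus chromosome IX, which carries PRI1. On S. cerevisiae chromosome XII, which carries MCM5, CDC45, ORC3 and CLB4, it was 0.44. On S. eubayanus chromosome VII, which carries RNR4, it was 0.65 with day 2 replicate 2 included, which has hardly any counts there, and 0.03 without the pair of libraries low on that chromosome. Without that pair the medians were 0.49 on S. eubayanus chromosome II, -0.27 on S. cerevisiae chromosome I and -0.55 on S. eubayanus chromosome I. They were then -0.46 on S. eubayanus chromosome IX and 0.22 on S. cerevisiae chromosome XII. The S. eubayanus copies of POL12 and MCM2 changed by 2.83 and 2.03 and their S. cerevisiae copies by 1.21 and 0.47, in a direction shared with S. eubayanus chromosome II. The ratio of the copies changed for POL12 and was not called for MCM2 (1.46 (adjusted p = 0.0633) by limma). The part of the chromosome shifts in the changes of these and the other members on such chromosomes was not tested. In minimal medium against day 4 the median of S. eubayanus chromosome II was 0.56, and 0.45 without the pair. Its part in the rises of POL12 and MCM2 against day 4 was not tested either.

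**Figure D4:**
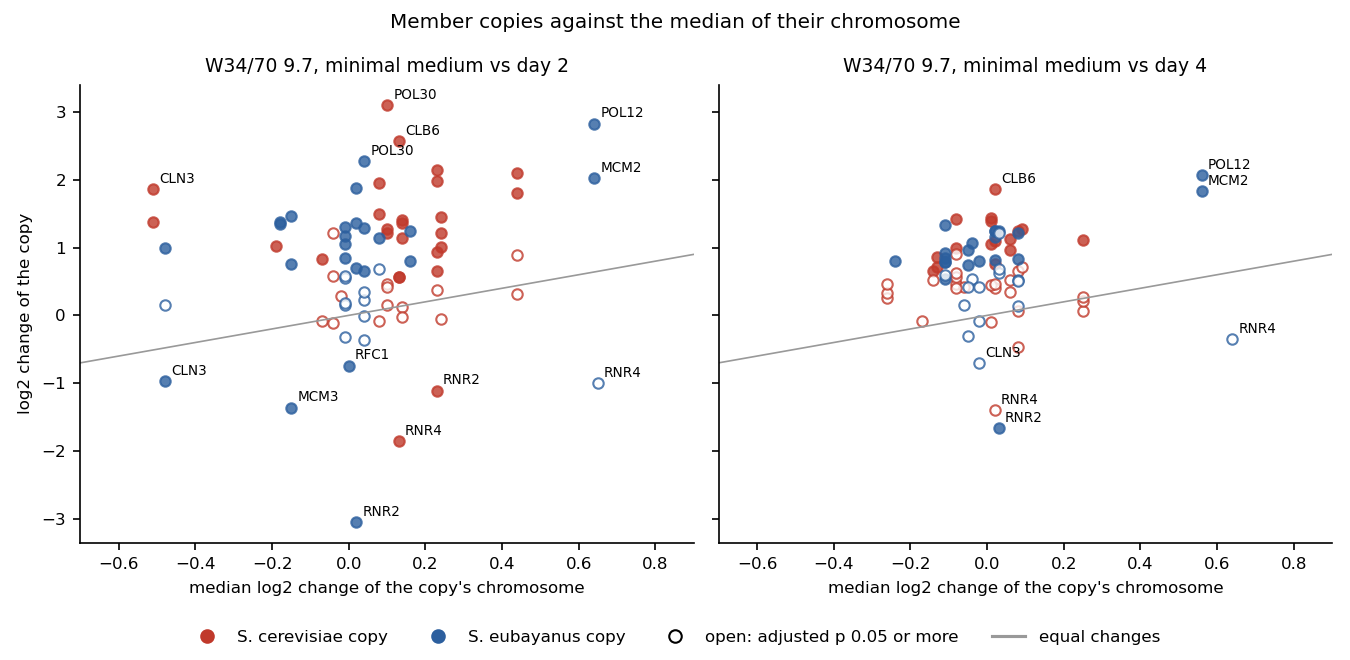
Log2 change of each member copy in W34/70 9.7 against the median log2 change of its chromosome, for minimal medium against day 2 and minimal medium against day 4. In the day 2 comparison the chromosome medians of members lie between the -0.51 of S. cerevisiae chromosome I and the 0.65 of S. eubayanus chromosome VII, which is 0.03 without the pair of libraries low on that chromosome.

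CLN3 hid opposite changes of its copies in W34/70 9.7. The S. cerevisiae copy (YAL040C, chromosome I, 65778 to 67520, reverse strand) had 70.8, 52.3 and 67.0 CPM in minimal medium, 27.8, 19.7 and 31.7 CPM on day 4 and 13.4, 25.2 and 13.7 CPM on day 2. The S. eubayanus copy (DI49_0021, chromosome I, 39405 to 41141, reverse strand) had 107, 53.0 and 105 CPM in minimal medium, 164, 143 and 128 CPM on day 4 and 144, 222 and 151 CPM on day 2. CPM of copies apart were scaled over the features, so they do not add up to the summed levels. Minimal medium was the high group for the S. cerevisiae copy (1.86 (SE 0.32, adjusted p = 0.000169) against day 2) and the low group for the S. eubayanus copy (-0.97 (SE 0.28, adjusted p = 0.0086)). The medians of their chromosomes in that comparison were -0.51 and -0.48. Without the pair of libraries low on S. eubayanus chromosome VII, the copies changed by 2.22 and -0.74 (adjusted p = 2.87e-05 and 0.0339). The medians were then -0.27 and -0.55. The part of the chromosome shift in the fall of the S. eubayanus copy was not tested. The S. eubayanus copy gave 57.1% ± 5.90 of CLN3 counts in minimal medium, 84.5% ± 3.98 on day 4 and 91.0% ± 1.02 on day 2 (SD, n = 3). The log2 ratio of S. eubayanus over S. cerevisiae counts changed by -2.92 (SE 0.27, adjusted p = 0.000974) by limma. In CBS1538 11.1 neither CLN3 copy was called against day 2 (-0.11 and 0.66). Without the pair low on S. eubayanus chromosome VII, the RFC3 copies of W34/70 9.7 were also called in opposite directions against day 2. The S. cerevisiae copy changed by 1.33 (adjusted p = 0.000167) and the S. eubayanus copy by -0.51 (adjusted p = 0.0454). With all libraries in the fit, ORC5 was the other gene with opposite calls, in CBS1538 11.1. Its S. cerevisiae copy had 4.39, 4.03 and 7.94 CPM in minimal medium, against 8.81, 14.5 and 15.8 CPM on day 2 (-1.25 (SE 0.27, adjusted p = 0.00244)). Its S. eubayanus copy had 12.1, 19.6 and 15.1 CPM in minimal medium, against 6.79, 8.59 and 10.5 CPM on day 2 (0.84 (SE 0.31, adjusted p = 0.0497)), a call that ended when any 1 of 4 libraries was left out (0.69 to 0.92).

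The balance of copies was tested in W34/70 9.7 for the 35 members with enough counts of both copies. RNR4 was among them, although its S. eubayanus copy had no counts in the pair of libraries low on chromosome VII. In each comparison the share of these members called was near that of all pairs. Between minimal medium and day 2 it changed for 9 members, where 27.4% of all 4014 copy pairs were called. RNR2 (-1.92 (SE 0.17, adjusted p = 0.000937)), RFC3 (-1.66 (SE 0.20, adjusted p = 0.00198)), ORC3 (-1.45 (SE 0.38, adjusted p = 0.0262)), RFA3 (-1.29 (SE 0.28, adjusted p = 0.0147)), MCM3 (-1.28 (SE 0.16, adjusted p = 0.00226)) and CLN3 moved toward the S. cerevisiae copy. POL12 (1.65 (SE 0.33, adjusted p = 0.0097)), MCM4 (1.35 (SE 0.25, adjusted p = 0.00789)) and RFC2 (1.14 (SE 0.33, adjusted p = 0.0375)) moved toward the S. eubayanus copy. The calls on ORC3, RFA3 and RFC2 ended when any 1 of 4, 2 and 3 libraries was left out. Between minimal medium and day 4 it changed for 5 members, CLN3, MCM3, ORC6, RFA2 and RNR2, where 12.6% of pairs were called. For day 4 against day 2 it changed for 5 members, CDC9, ORC3, ORC6, RFC3 and RNR2, where 10.4% of pairs were called. With single libraries left out, CLN3 and RNR2 alone kept their calls between minimal medium and day 4, and no member did so for day 4 against day 2.

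RNR2 had the S. eubayanus share of its counts lowest in minimal medium. The share was 10.4% ± 1.36 in minimal medium, 21.1% ± 2.28 on day 4 and 30.6% ± 1.77 on day 2 (SD, n = 3). Both copies were called lower in minimal medium than on day 2, the S. eubayanus copy by -3.05 (SE 0.25, adjusted p = 2.03e-07) and the S. cerevisiae copy by -1.11 (SE 0.21, adjusted p = 0.000373). Over the 35 members the median S. eubayanus share was 32.4% in minimal medium, 31.3% on day 4 and 34.1% on day 2, beside 34.5%, 31.8% and 35.3% over all pairs. The share of S. eubayanus counts could not be read for RNR4 in the pair of libraries low on chromosome VII, where that copy had 0 counts. With both copies summed, RNR4 lay at 787 CPM in that day 4 library, against 895 and 804 CPM in the others, and at 1209 CPM in that day 2 library, between the others.

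**Figure D5:**
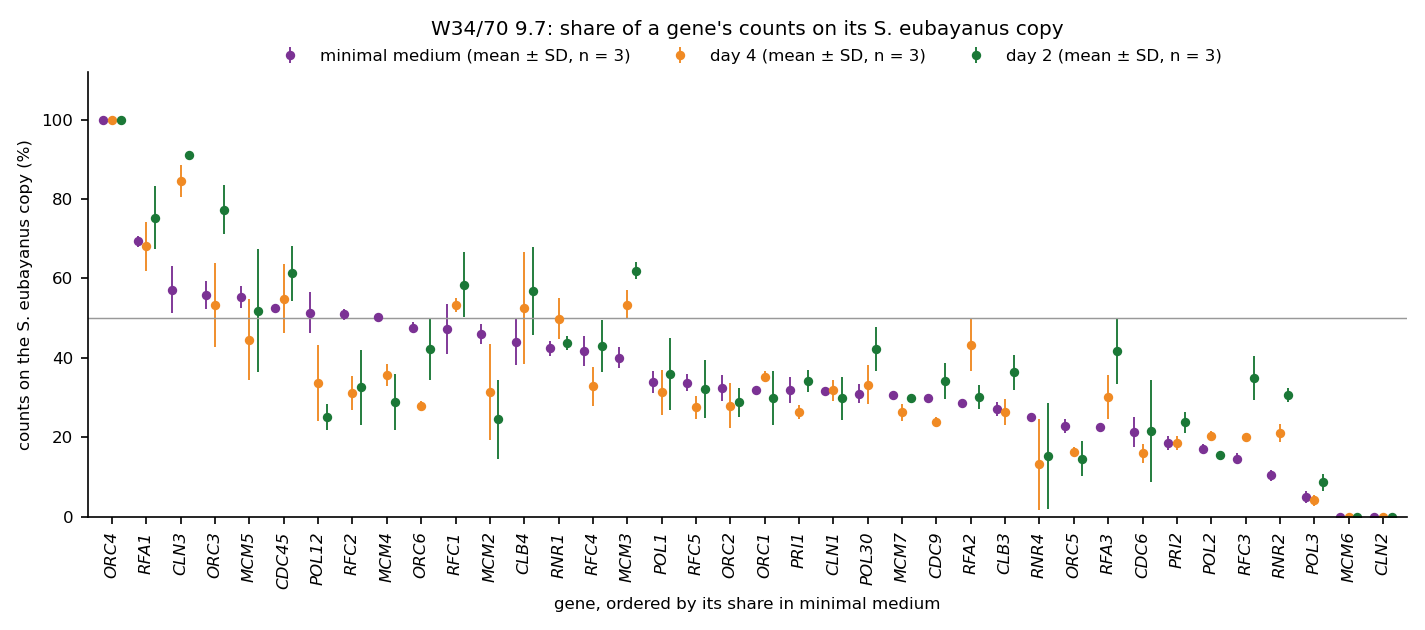
Percent of counts from the S. eubayanus copy of each member with a feature in both sub-genomes in W34/70 9.7, in minimal medium, on day 4 and on day 2. The RNR4 means on day 4 and day 2 include the pair of libraries with 0 counts on that copy. MCM6 and CLN2 lie at 0% and ORC4 at 100% because the other feature or this one held no counts at all. CLN3 has the widest difference, at 57.1% in minimal medium and 91.0% on day 2, and RNR2 goes the same way at 10.4% and 30.6%.

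Divided by feature length, the levels of the members covered a wide range. RNR4 had the highest level in every group, at 364 ± 22.3 CPM per kb in minimal medium, 798 ± 55.7 on day 4 and 1130 ± 239 on day 2 in W34/70 9.7. In CBS1538 11.1 it was 980.2 ± 221, 992 ± 49.6 and 2172 ± 278 CPM per kb (SD, n = 3). In W34/70 9.7 minimal medium POL30 (344 ± 27.0 CPM per kb) and RFA3 (305 ± 59.9) followed RNR4 within their spread, and RNR2 (180 ± 12.5) came next. On day 2 RNR2 (489 ± 110.5 CPM per kb) was second. CLB6 had the lowest level in W34/70 9.7, at 5.67 ± 0.859 CPM per kb in minimal medium, 1.50 ± 0.552 on day 4 and 0.921 ± 0.219 on day 2. That level is of its S. cerevisiae feature alone, beside summed copies for most members.

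Other genes of the pathway were counted as well, beside 33.1% of all genes tested called higher and 32.4% lower in W34/70 9.7, and 31.6% and 24.3% in CBS1538 11.1. Of 29 further replication genes, 18 were called higher and 1 lower in minimal medium against day 2 in W34/70 9.7, and of 28 measured in CBS1538 11.1, 9 were higher and 4 lower. RAD27, the flap nuclease of Okazaki fragments, rose in both strains (2.79 (adjusted p = 1.75e-08) in W34/70 9.7, 2.14 (adjusted p = 6.49e-07) in CBS1538 11.1), as did PSF3, a GINS subunit of the active helicase (2.84 (adjusted p = 3.48e-06) in W34/70 9.7, 1.72 (adjusted p = 0.000715) in CBS1538 11.1). RNR3, the damage-inducible large subunit gene of ribonucleotide reductase, was the lower one in W34/70 9.7 (-4.49 (adjusted p = 5.73e-08)) and also fell in CBS1538 11.1 (-2.22 (adjusted p = 5.21e-05)). Of the regulators of G1 to S, 6 of 12 were higher and 3 lower in W34/70 9.7 and 3 of 11 higher and 2 lower in CBS1538 11.1. The cyclin gene PCL1 (4.22 (adjusted p = 4.87e-08)) and the cyclin-dependent kinase gene CDC28 (1.39 (adjusted p = 9.93e-06)) rose in W34/70 9.7, and FAR1, an inhibitor of Cln-Cdc28 (-1.83 (adjusted p = 2.48e-05)), fell. Of the regulators of G2 to M, 5 of 8 were higher and 0 lower in W34/70 9.7 and 1 of 8 higher in CBS1538 11.1, with CDC5, the polo kinase (1.53), FKH1 (1.19) and CDC20, an activator of the anaphase-promoting complex (0.98), named by the rule. Of the M to G1 genes, 3 of 7 were higher and 1 lower in W34/70 9.7 and 1 higher and 1 lower in CBS1538 11.1. The transcription factor gene SWI5 (2.54) and PCL9 (2.38) were called higher in W34/70 9.7 and CDH1 (-1.25) lower. Some calls behind these W34/70 9.7 counts were weak. Those on DBF4, DPB11 and SIC1 ended when any 1 of 6 libraries was left out, and those on CDC7, MRC1 and HCM1 when any 1 of 4 was.

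Summed levels of markers of other cell states varied across the conditions. The 15 meiosis and sporulation markers summed to 83.7 to 89.6 CPM in minimal medium, 167 to 190.3 CPM on day 4 and 86.6 to 157.5 CPM on day 2 in W34/70 9.7, and to 66.8 to 79.9, 105 to 119.1 and 64.7 to 118 CPM in CBS1538 11.1. None was at 0 in either strain. In W34/70 9.7, minimal medium against day 2 called 2 of 15 higher and 6 lower, with REC8 (-2.03 (adjusted p = 1.94e-05)), SPO13 (-2.68 (adjusted p = 0.000614)) and DMC1 (-2.0 (adjusted p = 0.00152)) among the lower ones. The 2 called higher were SPS4 (2.55) and SPS1 (0.97), and the SPS1 call ended when any 1 of 5 libraries was left out. Among the lower ones, the calls on SMK1 and IME2 ended when any 1 of 5 and 3 libraries was left out. In CBS1538 11.1, 3 were higher and 2 lower. In both strains the share called higher was below that of all genes tested, 33.1% in W34/70 9.7 and 31.6% in CBS1538 11.1. The share of all genes tested called lower was 32.4% in W34/70 9.7 and 24.3% in CBS1538 11.1. The 5 stationary phase markers summed to 118.6 to 140.4 CPM in minimal medium, 190.4 to 787.5 CPM on day 4 and 256.7 to 317.1 CPM on day 2 in W34/70 9.7, and to 104.4 to 139.2, 969.7 to 1030 and 221.1 to 273.3 CPM in CBS1538 11.1. Minimal medium had the lowest sums in both strains, and SPG1 had the largest fall against day 2 (-7.33 (adjusted p = 4.37e-05) in W34/70 9.7). In W34/70 9.7, 0 of 5 were called higher and 2 lower, with SNO1 called (-1.13 (adjusted p = 0.00584)) and SPG4 at -1.17 (adjusted p = 0.0772). In CBS1538 11.1, 0 were higher and 3 lower. Their part in the changes of the replication and cyclin genes was not tested.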

How the data were processed

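RNA-seq counts of 18 libraries were used. The deposited file holds the authors' raw, unnormalised counts for features of both sub-genomes. STAR, SAMtools, featureCounts, DESeq2 and the S. cerevisiae build R64 are named in the submitters' processing notes. Tool versions, the S. eubayanus assembly, strandedness and the treatment of reads matching both species were not given in the sources used here. Reads shared between near-identical copies may sit on either copy.

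Features with the same gene name were summed, and also kept apart. Each table had 1 fit of all 18 libraries by edgeR 4.0.16 (R 4.3.3), using the quasi-likelihood test, TMM factors, a mean per group and filterByExpr at a minimum count of 10 and a minimum total of 15. The filter kept 6633 summed genes and 10894 features. P-values were adjusted by Benjamini-Hochberg over all genes tested in a comparison. Copy ratios were tested with limma 3.58.1 on log2 ratios of counts plus 0.5, for 4014 pairs with 10 or more counts of each copy in 6 of 9 W34/70 9.7 libraries. Percentages of genes called, and medians, are over genes with 10 or more counts in the libraries compared. CPM are after TMM scaling. Chromosome medians use features that average 20 or more counts.

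Groups follow the titles. No 2 replicates were duplicates (chi-square per degree of freedom 17.1 or more). Totals of 5266324 to 19467656 counts leave values near 1 CPM with few counts and a large counting error. Tables were prepared with Python 3.11.15, pandas 2.3.3 and numpy 2.4.6. Alternatives were DESeq2 1.42.0 size factors and its test, library totals, no filter, only the groups compared, a replicate block, other ratio settings, and leaving out libraries.

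The members, the lists and the rule for named genes were chosen with earlier results of these data known. Values in every library are given for all cyclins, for the member of each role with the smallest p and with the largest change in minimal medium against day 2 in W34/70 9.7, and for members or copies called in opposite directions. Of each other list, the 3 genes with the smallest p in that comparison are named. Other members are given by their changes.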

Additional observations from a re-analysis of the deposited data

Results flagged for a closer look

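The change between conditions differed between the strains, by the interaction test of edgeR at an adjusted p under 0.05, for 36 pairs of a member and a comparison. Values are the log2 change in W34/70 9.7 minus that in CBS1538 11.1. For minimal medium against day 2 they were MCM6 (1.09), CDC6 (2.14), CDC45 (2.01), ORC6 (1.18), POL1 (1.09), POL12 (1.24), PRI2 (1.04), POL2 (1.19), POL30 (1.71), RFC4 (0.66), RFA2 (1.03), RFA3 (1.02), RNR1 (1.82), RNR2 (-0.94), CLN1 (0.84), CLN2 (2.08) and CLB4 (1.26). For minimal medium against day 4 they were MCM6 (1.20), CDC6 (1.91), CDC45 (1.09), POL2 (0.83), POL30 (1.49), RFA1 (1.53), RFA2 (1.20), RFA3 (1.02), RNR1 (1.99), RNR2 (-1.11), RNR4 (-1.11), CLN1 (0.86), CLN2 (2.35) and CLB4 (1.12). For day 4 against day 2 they were CDC45 (0.91), ORC6 (1.42), PRI2 (1.36), RFC3 (0.78) and RFA1 (-1.14). The comparisons with day 2 rest on the CBS1538 11.1 day 2 libraries whose strain labels disagree, and the comparison of minimal medium with day 4 does not use them except in the shared estimate of the spread. CDC6, CDC45, MCM6, POL2, POL30, RFA2, RFA3, RNR1, RNR2, CLN1, CLN2 and CLB4 appear in both comparisons with minimal medium, which share the minimal medium libraries. With single libraries left out, the calls on CLN1, POL1, POL30, PRI2, RFA3 and RFC4 against day 2, on CLN1, POL30 and RFA3 against day 4, and on CDC45, PRI2, RFC3 and RFA1 for day 4 against day 2 ended.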

How the results depend on the processing

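The counts of members called kept their leading direction, and stayed within 1.5 times, under every alternative run for minimal medium against either wort day in W34/70 9.7 (27 to 32 and 22 to 26 with single libraries left out, 32 and 28 without the pair low on S. eubayanus chromosome VII). Other counts moved or turned, and the cause was not tested. Scaling by library totals moved the median of all genes for day 4 against day 2 in W34/70 9.7 to 0.52, against 0.08 with TMM, and gave 21 calls there (20 higher, 1 lower), 14 for W34/70 9.7 against CBS1538 11.1 on day 4 (10 and 4), 9 for the strain difference of day 4 against day 2, 33 copies for day 4 against day 2 in W34/70 9.7 and 16 copies for minimal medium against day 2 in CBS1538 11.1 (10 and 6). In the day 4 against day 2 comparison of W34/70 9.7, POL2 became 0.03 and RFA2 became 0.43 with it. For minimal medium against day 2 in CBS1538 11.1, calls were 16 (7 and 9) with DESeq2 size factors, 20 (9 and 11) with DESeq2's test, 15 (6 and 9) with no filter and 11 (5 and 6) with only the groups compared, and copies were 21 (11 and 10) without the pair of W34/70 9.7 libraries. Only the groups compared gave 7 (3 and 4) for day 4 against day 2 in W34/70 9.7, 9 for the strains on day 2 and 2 for the strain difference of day 4 against day 2, where DESeq2's test gave 8 and no filter 3. Without that pair of libraries, 8 copy ratios were called for minimal medium against day 4, and POL30 was -0.64 for W34/70 9.7 against CBS1538 11.1 on day 2.

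Leaving out single libraries gave 8 to 12 calls for day 4 against day 2 in W34/70 9.7, 10 to 18 for minimal medium against day 2 and 14 to 23 against day 4 in CBS1538 11.1, 1 to 5 for the strain difference of day 4 against day 2, and 2 to 4 and 0 to 4 copy ratios for minimal medium against day 4 and day 4 against day 2. Without CBS1538 11.1 minimal medium replicate 1 or 2, or day 2 replicate 1 or 3, calls for minimal medium against day 2 were 11 (5 and 6), 10 (5 and 5), 13 (6 and 7) and 11 (3 and 8).

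In W34/70 9.7 the replicate numbers did not pair the libraries. Deviations of its same-numbered libraries between day 4 and day 2 correlated at -0.64, -0.53 and 0.52. The pair low on S. eubayanus chromosome VII, which correlated at 0.79, carries different numbers. In CBS1538 11.1 same-numbered day 4 and day 2 libraries correlated at 0.21, 0.08 and 0.16, and differently numbered ones at -0.21 to 0.12. Same-numbered correlations with minimal medium were -0.27 to 0.07. Whether a day 4 and a day 2 library share a culture is not given in the sources used here. They were tested as unpaired, and a block by number cannot account for a pairing under other numbers. With a replicate block the calls were 34 for minimal medium against day 2 in W34/70 9.7, 17, 9 (5 and 4) and 7 for the strains in minimal medium, on day 4 and on day 2, 2 for the strain difference of day 4 against day 2, and 1 copy ratio for day 4 against day 2. Low counts limit CLB6 most, since it had 512 counts in all.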
